A study of Mus musculus with 10 samples.

Results

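Cited2 and 9 regulators of the hypoxia-inducible transcription factors were followed by name in tumour-associated macrophages: Hif1a, Epas1, Arnt, Ep300, Crebbp, Egln1, Egln2, Vhl and Hif1an. All 10 symbols matched an Entrez identifier among the 36528 gene identifiers measured, and all 10 passed the filter on low counts, which left 13588 genes. The macrophages had been purified from MC-38 tumours (a mouse colon carcinoma line) carried by C57Bl/6 mice. They were taken 24 h after an antibody against MerTK, the receptor tyrosine kinase with which macrophages bind and engulf apoptotic cells (5 libraries), or after a control antibody against the viral envelope protein gp120 (5 libraries). The labels give no dose, animal age, purification markers, batch or pooling, and nothing in them ties a library to an animal, so SDs and p-values cover the spread among these 10 libraries, which may be technical. Polyadenylated RNA was sequenced, with 33159858 to 46108687 counted reads per library.

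Hypoxia-inducible factors are heterodimers of an oxygen-labile alpha subunit (HIF-1 alpha from Hif1a or HIF-2 alpha from Epas1) and the stable partner ARNT. In oxygen, the prolyl hydroxylases of the Egln genes mark the alpha subunit for the ubiquitin ligase that contains VHL. The asparagine hydroxylase FIH, encoded by Hif1an, blocks its binding to the coactivators p300 and CBP, which are encoded by Ep300 and Crebbp. CITED2 is a small nuclear protein, itself induced by HIF, which competes with HIF alpha subunits for the TAZ1 domain of p300 and CBP. In macrophages HIF-1 supports glycolysis and inflammatory gene expression, and CITED2 has been described as a restraint on both. Most of this control acts on protein stability and protein contacts, which transcript levels do not measure.

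The list was chosen by the measured difference of Cited2 between the antibodies in these same counts, so the values of the 10 genes are given as a description without tests. Cited2, the competitor for the coactivators, was higher in every library after anti-MerTK than in any library after anti-gp120. Transcripts of the alpha subunits, the partner ARNT, the coactivators, the hydroxylases and VHL overlapped between the antibodies. Cited2 was the single gene of the 10 past the all-gene threshold, a Benjamini-Hochberg adjusted p under 0.05 in edgeR's quasi-likelihood test, which 3.22% of all tested genes passed. It was also the single gene of the 10 whose libraries did not overlap between groups, which held for 5.97% of tested genes (3.26% with anti-MerTK higher and 2.71% with anti-MerTK lower). Nothing is read from these counts, because the choice of genes used the same comparison. Macrophage markers were high: Adgre1 (F4/80) was at 1700 to 2100 CPM after anti-MerTK and 1650 to 2330 CPM after anti-gp120, while the epithelial gene Epcam and the T cell gene Cd3e stayed under 0.3 CPM in all 10 libraries. Cd68 did not overlap, at 928 to 1080 CPM after anti-MerTK and 831 to 903 CPM after anti-gp120. Of 10 macrophage markers tested, 1 was higher and 0 were lower in edgeR, against 1.85% and 1.38% of all tested genes. Their median log2 fold change was 0.03. The sum of 6 dendritic cell markers was 47.2 to 91.5 CPM after anti-MerTK and 23.8 to 63.6 CPM after anti-gp120, of which Xcr1 had 11.3 to 50.4 CPM after anti-MerTK and 12.6 to 34.6 CPM after anti-gp120, and 0 of the 3 tested passed in edgeR (median log2 fold change 0.51). The sum of 7 neutrophil markers was 65.2 to 88.1 CPM after anti-MerTK and 60.6 to 104 CPM after anti-gp120. Among them S100a8 reached at most 1.62 CPM and Ly6g at most 0.061 CPM in any library. The sum of 5 B cell markers was 17.6 to 30.5 CPM after anti-MerTK and 19.8 to 40.2 CPM after anti-gp120. Of these Cd79a reached at most 0.12 CPM in any library. The sum of 8 fibroblast markers was 6.51 to 43.2 CPM after anti-MerTK and 7.75 to 31.8 CPM after anti-gp120. The part of these cell types in the results was not tested. CPM is the count of a gene scaled to a common library size, with library sizes normalized by trimmed means (TMM).

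The sequence before the start of Cited2 and that of Egln1 are shown because both genes are known HIF targets among the 10. Each run is the 250 bases upstream of the RefSeq start on GRCm38.p6, 5′ to 3′ on the gene's strand. The Cited2 window is chr10:17722978-17723227 on the plus strand, and the Egln1 window is chr8:124949255-124949504 on the minus strand. Capitals mark ACGTG on either strand, the core of the sequence HIF binds.
Cited2: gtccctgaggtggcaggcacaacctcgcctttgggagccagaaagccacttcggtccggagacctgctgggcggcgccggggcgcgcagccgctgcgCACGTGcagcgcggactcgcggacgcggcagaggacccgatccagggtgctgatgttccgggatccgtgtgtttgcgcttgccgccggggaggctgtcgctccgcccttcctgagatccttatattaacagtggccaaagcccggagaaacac
Egln1: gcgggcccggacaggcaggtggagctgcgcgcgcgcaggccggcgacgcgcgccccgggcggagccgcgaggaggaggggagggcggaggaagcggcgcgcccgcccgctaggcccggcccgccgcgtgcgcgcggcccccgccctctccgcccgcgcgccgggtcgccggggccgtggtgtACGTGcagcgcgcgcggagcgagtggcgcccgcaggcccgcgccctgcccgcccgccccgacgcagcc
In the Cited2 window the 2 matches overlapped in the palindrome CACGTG, which also fits the E-box of other factors, and began 153 and 152 bases before the start. The Egln1 window held 1 match, 68 bases before the start. RefSeq promoter windows were matched for 9 of the 10 genes, and 4 of these 9 (Cited2, Egln1, Egln2 and Hif1a) held ACGTG on either strand. Over all genes with a window the share was 18.5%, and among 39 HIF target genes of a list described later it was 53.8%. CACGTG was found for Cited2 and Hif1a, against 6.86% of all genes. A match is a description of letters and shows no binding.

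Cited2 (Entrez 17684, chromosome 10, 17723228 to 17725674) had 288.5, 315.5, 288.1, 268.1 and 270.3 CPM in anti-MerTK replicates 1 to 5, against 196.5, 196.6, 195.2, 192.8 and 190.7 CPM in anti-gp120 replicates 1 to 5. These values rest on 9700 to 12577 reads of the gene per anti-MerTK library and 6396 to 8191 reads per anti-gp120 library. The lowest anti-MerTK library thus lay above the highest anti-gp120 library by more than the whole spread of either group. The means were 286.1 ± 19.01 CPM after anti-MerTK and 194.4 ± 2.54 CPM after anti-gp120 (SD, n = 5 each). Its log2 fold change was 0.56 (SE 0.06), a 1.47-fold higher level after anti-MerTK. Across the 18 other settings and subsets of libraries, all of the same counts that chose the gene, its log2 fold change was 0.52 to 0.58.

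The spread of Cited2 was small in the anti-gp120 libraries. Its coefficient of variation was 6.64% over the anti-MerTK libraries and 1.31% over the anti-gp120 libraries. Counting error alone, from the mean anti-gp120 count of the gene, is 1.17%. Among the 1550 tested genes whose mean anti-gp120 CPM lay within 2-fold of that of Cited2, the median coefficient of variation was 8.0% after anti-MerTK and 9.28% after anti-gp120, and 0 of them varied less than Cited2 in the anti-gp120 libraries. Cited2 was chosen by its difference between the antibodies in these same counts. Such a choice favours genes with little spread within groups, so nothing is read from this rank.

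**Figure D1:**
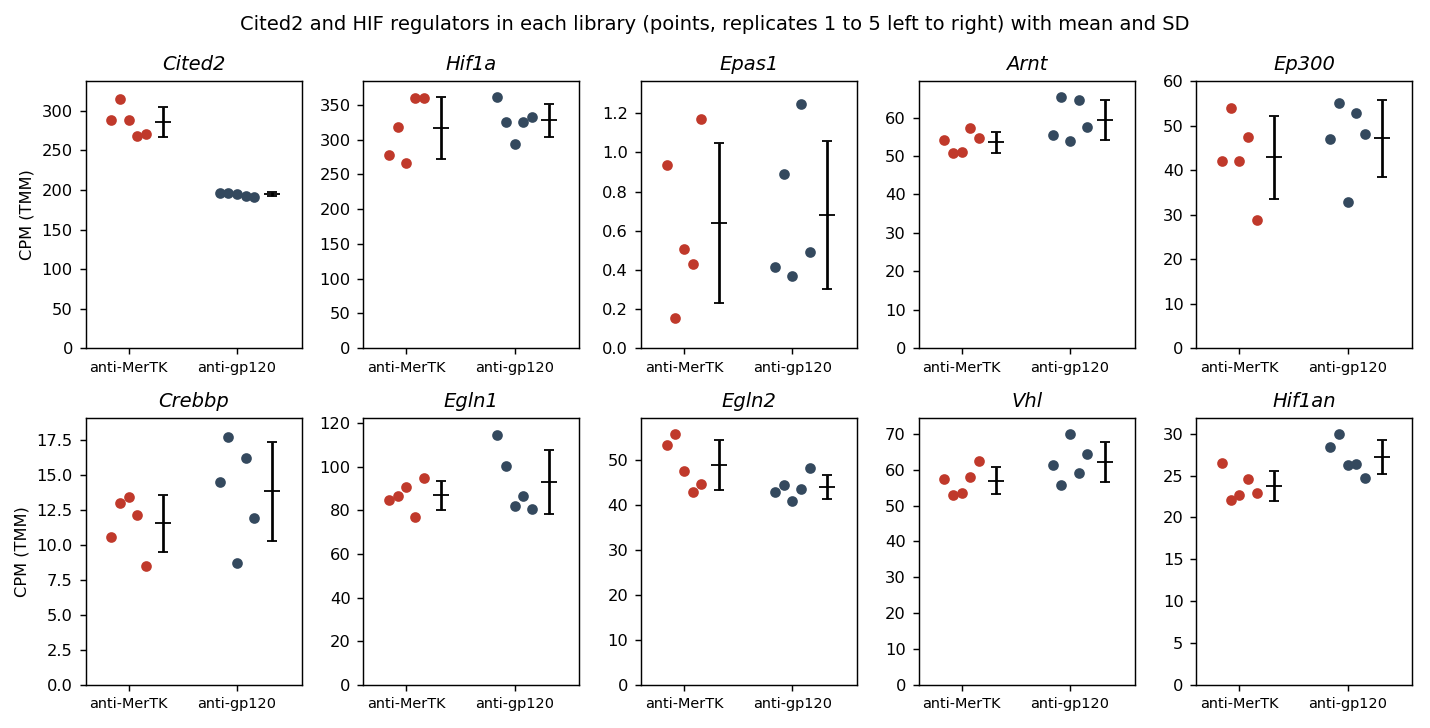
Normalized level in CPM (y axes, each from 0) of Cited2 and the 9 HIF regulators in each library, anti-MerTK left and anti-gp120 right, with the mean and SD of 5 libraries. Cited2 sits between 268.1 and 315.5 CPM after anti-MerTK and between 190.7 and 196.6 CPM after anti-gp120, while the groups overlap for the other 9 genes.

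Hif1a, the alpha subunit of HIF-1 (chromosome 12, 73901324 to 73947554), had 277.6, 318.7, 266.8, 360.4 and 359.1 CPM in anti-MerTK replicates 1 to 5, against 361.1, 324.9, 294.0, 325.3 and 332.3 CPM in anti-gp120 replicates 1 to 5. Both groups reached about the same highest value, and the 2 lowest libraries were anti-MerTK replicates 3 and 1. The log2 fold change was -0.05 (SE 0.10). The ratio of Cited2 to Hif1a within a library, computed from the authors' RPKM values (a read density per kilobase of gene and per library size), does not depend on how libraries are scaled. It was 1.7 to 2.46 after anti-MerTK, with a mean of 2.1 ± 0.37, and 1.24 to 1.51 after anti-gp120, with a mean of 1.36 ± 0.10 (SD, n = 5 each). This ratio was chosen after its values were seen, and the groups did not overlap. Its numerator is the gene on which the list was chosen, so the lack of overlap mostly restates the Cited2 values.

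Epas1, the alpha subunit of HIF-2 (chromosome 17, 86753864 to 86833410), was close to the limit of detection. It had 40, 5, 22, 19 and 42 reads in anti-MerTK replicates 1 to 5, against 15, 37, 12, 46 and 20 reads in anti-gp120 replicates 1 to 5. The means were 0.64 ± 0.41 CPM after anti-MerTK and 0.68 ± 0.38 CPM after anti-gp120 (SD, n = 5 each), with a log2 fold change of -0.09 (SE 0.48). The spread between libraries was more than 0.5 of the mean in both groups, and the estimate ran from -0.72 to 0.24 over the alternatives. Epas1 is a marker of endothelium in many tissues. The summed level of 9 endothelial markers was 72.8 to 121 CPM after anti-MerTK and 85.4 to 134 CPM after anti-gp120, most of it from Pecam1, which macrophages also express. None of the 5 endothelial markers tested passed in edgeR, and their median log2 fold change was 0.37. The junction gene Cdh5 was at 2.09 to 3.15 CPM after anti-MerTK and 1.01 to 2.08 CPM after anti-gp120, and the receptor gene Kdr at 7.19 to 9.31 CPM after anti-MerTK and 5.1 to 7.31 CPM after anti-gp120. The receptor gene Tek had no read in any anti-MerTK library and at most 0.024 CPM in an anti-gp120 library. In bulk RNA, fewer cells of a type and less RNA per cell cannot be told apart.

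Arnt, the common partner of both alpha subunits (chromosome 3, 95434367 to 95497240), had 50.86 to 57.33 CPM after anti-MerTK and 53.95 to 65.49 CPM after anti-gp120. Every anti-MerTK library was below the anti-gp120 mean, but the ranges overlapped, and the log2 fold change was -0.15 (SE 0.07). The related subunits Hif3a and Arnt2, taken from the list of bHLH-PAS factors, averaged 0.10 ± 0.09 and 0.04 ± 0.03 CPM after anti-MerTK and 0.03 ± 0.05 and 0.04 ± 0.06 CPM after anti-gp120 (SD, n = 5 each) and did not pass the filter on low counts.

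Transcripts of the oxygen-sensing hydroxylases overlapped between the antibodies. Egln1, the gene of the main HIF prolyl hydroxylase PHD2 and a HIF target (chromosome 8, 124908587 to 124949254), had a lowest, median and highest value of 76.95, 86.7 and 94.92 CPM after anti-MerTK, against 80.71, 86.7 and 114.7 CPM after anti-gp120. Its log2 fold change was -0.10 (SE 0.10), and it was -0.01 without anti-gp120 replicate 1, the highest library. Egln2, which encodes PHD1 (chromosome 7, 27158658 to 27166802), was the other gene of the 10 with a positive estimate. It averaged 48.93 ± 5.54 CPM after anti-MerTK and 43.99 ± 2.74 CPM after anti-gp120 (SD, n = 5 each), with a log2 fold change of 0.15 (SE 0.08). The third hydroxylase gene, Egln3, which is strongly induced by hypoxia in many cells, ranged from 15.64 to 46.93 CPM after anti-MerTK and from 19.29 to 44.25 CPM after anti-gp120, so both groups spanned about the same range (log2 fold change -0.01, SE 0.32).

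Vhl, the substrate receptor of the ligase that degrades hydroxylated HIF alpha (chromosome 6, 113623994 to 113631634), averaged 56.88 ± 3.79 CPM after anti-MerTK and 62.11 ± 5.49 CPM after anti-gp120 (SD, n = 5 each), with a log2 fold change of -0.13 (SE 0.07). Hif1an, the asparagine hydroxylase gene (chromosome 19, 44562854 to 44576274), had 26.53, 22.1, 22.6, 24.6 and 22.9 CPM in anti-MerTK replicates 1 to 5, against 28.5, 30.0, 26.3, 26.4 and 24.8 CPM in anti-gp120 replicates 1 to 5. Every anti-MerTK library was below the anti-gp120 mean of 27.2 CPM, and anti-MerTK replicate 1 lay above 3 of the anti-gp120 libraries. The log2 fold change of Hif1an was -0.19 (SE 0.08), the second largest negative estimate among the 10.

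Both coactivator genes varied more between libraries than between antibodies. Ep300 (chromosome 15, 81586209 to 81652077) had 42.2, 54.01, 42.09, 47.4 and 28.84 CPM in anti-MerTK replicates 1 to 5, against 47.02, 55.05, 32.92, 52.98 and 48.14 CPM in anti-gp120 replicates 1 to 5 (log2 fold change -0.14, SE 0.17). Crebbp (chromosome 16, 4081334 to 4213957) had 10.58, 12.99, 13.45, 12.15 and 8.47 CPM in anti-MerTK replicates 1 to 5, against 14.5, 17.71, 8.73, 16.18 and 11.94 CPM in anti-gp120 replicates 1 to 5 (log2 fold change -0.26, SE 0.18). The same library was lowest for both genes within each group, anti-MerTK replicate 5 and anti-gp120 replicate 3. Over the 10 libraries, deviations of Ep300 and Crebbp from their group means on the log2 CPM scale correlated with Pearson r = 0.88 (Spearman rho = 0.69), and with r = 0.52 without those 2 libraries. Crebbp and Vhl deviated in opposite directions, with r = -0.96 (rho = -0.94), and with r = -0.91 without the same libraries. These correlations describe 10 libraries that share depth and cell composition between the genes.

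Libraries also differed in the level of long transcripts. The longest annotated transcripts of Ep300 and Crebbp have 9566 and 10820 nucleotides, and that of Vhl has 2792, in GENCODE M21. Those of Hif1an, Epas1, Hif1a and Arnt have 6194, 5516, 4724 and 4325 nucleotides. Those of Egln1, Cited2 and Egln2 have 3594, 2411 and 2107. Across 629 other tested genes with a transcript of at least 8000 nucleotides, the median deviation from the group mean was lowest in anti-MerTK replicate 5 (-0.12) and anti-gp120 replicate 3 (-0.26), within their groups, on the log2 CPM scale. It was highest in anti-MerTK replicate 4 (0.08) and anti-gp120 replicate 2 (0.21). The deviations of Crebbp, Ep300 and Arnt correlated with this median at r = 0.89, 0.80 and 0.80, and that of Vhl at r = -0.83. Without anti-gp120 replicates 2 and 3, the libraries farthest out, r was 0.71, 0.69, 0.61 and -0.58. Over all 10 libraries r was nearer 0 for Cited2 (0.08), Hif1a (0.10), Egln1 (0.12) and Egln2 (0.20). It was 0.32 for Epas1 and 0.43 for Hif1an. The part of transcript length in these deviations was not tested.

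**Figure D2:**
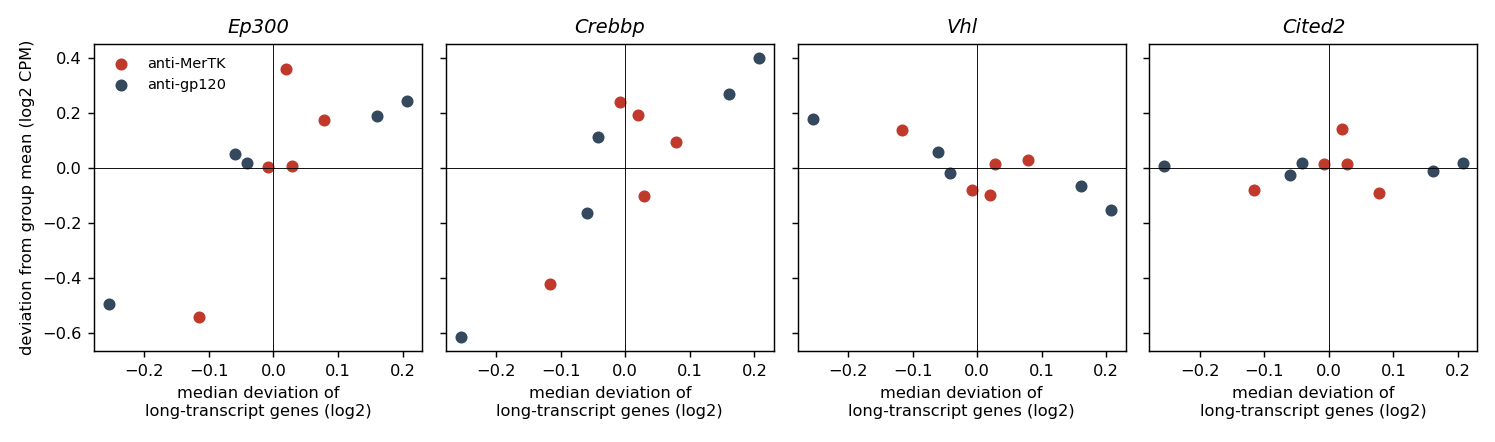
Deviation of Ep300, Crebbp, Vhl and Cited2 from their group mean in log2 CPM (y axis) against the median deviation of 629 genes with long transcripts (x axis), one point per library and colours for anti-MerTK and anti-gp120. Ep300 and Crebbp lie lowest in the libraries where long transcripts are lowest, Vhl runs the other way, and Cited2 stays within 0.15 of 0.

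Compared per length, in the authors' size-factor-adjusted RPKM, Cited2 had the highest level of the 10 genes in both groups. It averaged 137.4 ± 9.09 RPKM after anti-MerTK and 93.21 ± 1.13 RPKM after anti-gp120 (SD, n = 5 each), above 96.0% of tested genes after anti-MerTK and 94.3% after anti-gp120. Hif1a came next, at 66.71 ± 9.20 RPKM after anti-MerTK and 68.93 ± 4.92 RPKM after anti-gp120. Then came Egln1 (24.27 ± 1.955 after anti-MerTK, 25.91 ± 3.96 after anti-gp120), Vhl (20.92 ± 1.42 after anti-MerTK, 22.83 ± 2.16 after anti-gp120) and Egln2 (20.82 ± 2.35 after anti-MerTK, 18.69 ± 1.13 after anti-gp120), whose ranges overlapped with their neighbour in both groups. Arnt stood apart below these, at 12.19 ± 0.61 RPKM after anti-MerTK and 13.46 ± 1.14 RPKM after anti-gp120. Ep300 (4.91 ± 1.046 after anti-MerTK, 5.39 ± 0.96 after anti-gp120) and Hif1an (3.85 ± 0.29 after anti-MerTK, 4.404 ± 0.302 after anti-gp120) overlapped with each other. Crebbp was lower than its paralogue, at 1.12 ± 0.20 RPKM after anti-MerTK and 1.34 ± 0.34 RPKM after anti-gp120. The RPKM ratio of Ep300 to Crebbp was 3.67 to 4.88 after anti-MerTK and 3.65 to 4.73 after anti-gp120. Epas1 closed the order at 0.12 ± 0.08 RPKM after anti-MerTK and 0.13 ± 0.07 RPKM after anti-gp120. The order of the means was the same after both antibodies.

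**Figure D3:**
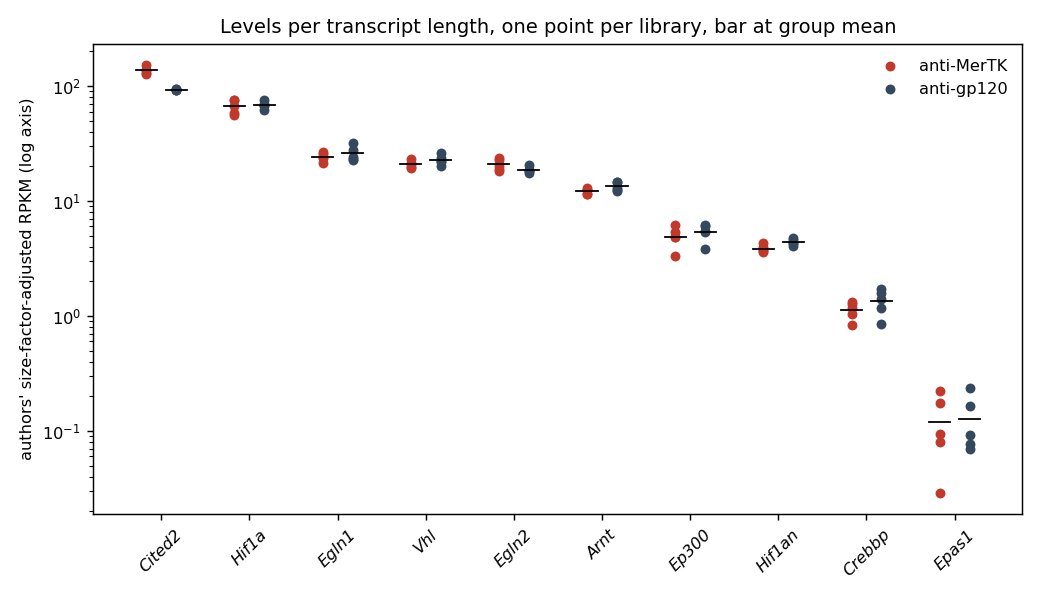
Level per gene length of the 10 genes in the authors' size-factor-adjusted RPKM (log axis), one point per library with anti-MerTK left of anti-gp120 for each gene and a bar at the group mean. The order runs from Cited2 at 137.4 RPKM after anti-MerTK and 93.21 RPKM after anti-gp120 to Epas1 at 0.12 and 0.13 RPKM after the same antibodies.

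Levels of monocyte markers are set beside Cited2 here. Of 8 monocyte markers tested, 1 was higher in edgeR at the all-gene threshold and 0 were lower, against 1.85% and 1.38% of all tested genes, with a median log2 fold change of 0.75. Their summed level was 383 to 645 CPM after anti-MerTK and 161 to 457 CPM after anti-gp120, and none of the 8 was at 0. The marker sums of anti-MerTK replicates 1 to 5 were 644.9, 511.8, 383.4, 402.2 and 636.2 CPM. Cited2 had 288.5, 315.5, 288.1, 268.1 and 270.3 CPM in the same libraries. In anti-gp120 replicates 1 to 5 the sums were 456.5, 423.0, 229.1, 391.5 and 161.2 CPM. There Cited2 had 196.5, 196.6, 195.2, 192.8 and 190.7 CPM. With the logarithm of the marker sum as a second term in the fit, which was added once the data were known, the log2 fold change of Cited2 was 0.54. The marker sum overlapped between the antibodies but ran higher after anti-MerTK, and these are the Cited2 values on which the list was chosen. Among the monocyte markers Plac8 did not overlap, at 34.4 to 110 CPM after anti-MerTK and 5.77 to 32.7 CPM after anti-gp120. Ccr2, at 224 to 316 CPM after anti-MerTK, and Ly6c2, at 5.54 to 10.3 CPM after anti-MerTK, overlapped with the anti-gp120 libraries. The part of monocytes in the result was not tested. The summed level of 7 epithelial or tumour markers was 25.8 to 34.2 CPM after anti-MerTK and 35.98 to 59.9 CPM after anti-gp120. Nearly all of it was Cdh1, the 1 marker tested, which fell, at 25.6 to 34.2 CPM after anti-MerTK and 34.6 to 59.8 CPM after anti-gp120, while Epcam was at no more than 0.123 CPM and Krt20 at 0.

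Genes known to act around the 10 were taken as lists from general knowledge, with earlier results of these data known. For HIF target genes, 0 of 42 tested members rose and 1 fell in edgeR's quasi-likelihood test over all genes, against 1.85% higher and 1.38% lower among all tested genes. At an unadjusted p under 0.05 stood 10 of the 42, against 20.9% of all genes, and 1 of the 42 passed with DESeq2 and 3 with limma-voom, against 9.19% and 7.62% of all genes. Their median log2 fold change was 0.06, with a range over 18 alternatives from -0.10 to 0.16, and that of all tested genes was -0.01. The member that fell was Aldoc, the aldolase isoform best known from brain. It had 35.83, 41.88, 41.28, 36.78 and 43.92 CPM in anti-MerTK replicates 1 to 5, against 54.93, 49.43, 53.09, 51.3 and 56.94 CPM in anti-gp120 replicates 1 to 5, with no overlap (log2 fold change -0.41 with an SE of 0.07, edgeR adjusted p = 0.0152). With the monocyte covariate the log2 fold change of Aldoc was -0.38 and its edgeR adjusted p was 0.0596, the highest over its 18 alternatives, which began at 6.94e-05. Without anti-MerTK replicate 5, 3 members of the list passed.

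The genes most used as readouts of HIF activity did not pass. Vegfa, the endothelial growth factor, averaged 381.2 ± 71.6 CPM after anti-MerTK and 457.3 ± 84.8 CPM after anti-gp120 (log2 fold change -0.26, SE 0.15). The glucose transporter gene Slc2a1 averaged 281.0 ± 52.3 CPM after anti-MerTK and 247.6 ± 35.2 CPM after anti-gp120 (0.18, SE 0.13), and the lactate dehydrogenase gene Ldha 834.4 ± 96.9 CPM after anti-MerTK and 736.8 ± 116 CPM after anti-gp120 (0.18, SE 0.11; SD, n = 5 each). Vegfa, Slc2a1, Ldha and Egln3 were picked with their values in view. Bnip3l, a receptor for mitophagy, Kdm3a, a histone demethylase, and Plin2, a coat protein of lipid droplets, had log2 fold changes of -0.32, -0.22 and 0.32, with edgeR adjusted p of 0.117, 0.164 and 0.140. Bnip3l passed without anti-MerTK replicate 5 (edgeR adjusted p = 0.0159) and with limma-voom (adjusted p = 0.0334). Divided after the values were seen, 14 of the 16 genes of glucose uptake and glycolysis had a positive estimate, with a median log2 fold change of 0.18 and a range from -0.41 to 0.27, and Aldoc was the lowest. With the monocyte covariate 9 of the 16 were positive, with a median of 0.01, against 13 or 14 of 16 or 12 of 14 in the other alternatives. The 26 other tested targets had 12 positive estimates and a median of -0.01. With the monocyte covariate 8 of the 26 were positive, with a median of -0.30, and without anti-MerTK replicate 5 the number was 7, with a median of -0.18. Among all tested genes 6654 of 13588 estimates were positive. Gapdh gave 1.997 CPM after anti-MerTK and 1.65 CPM after anti-gp120. Only uniquely aligning reads were counted, so genes with near-identical copies elsewhere can lose reads, and the values of Gapdh are uncertain.

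**Figure D4:**
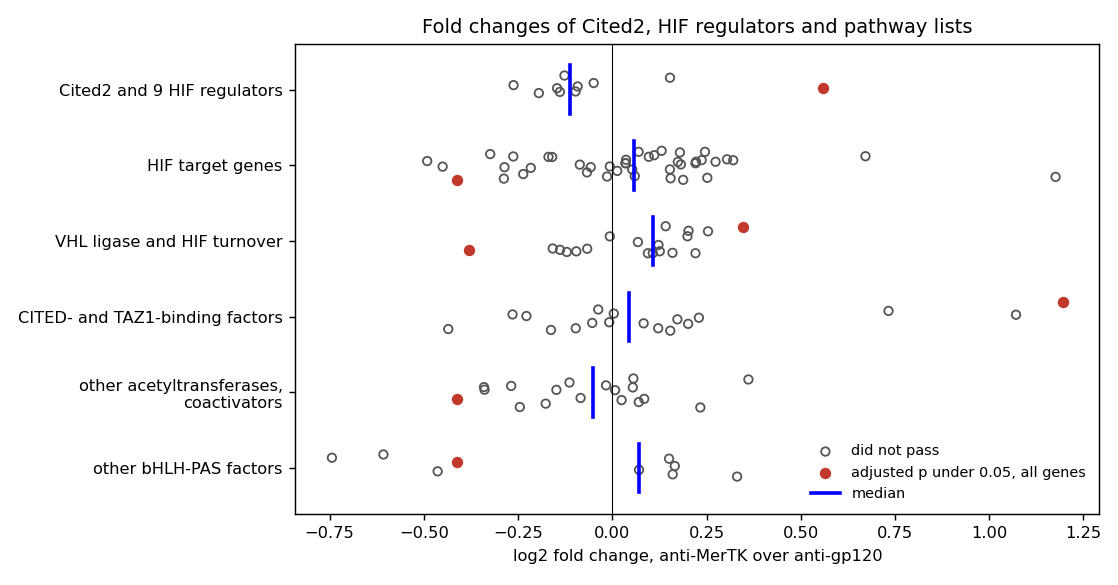
Log2 fold change, anti-MerTK over anti-gp120 (x axis), of Cited2 and the 9 HIF regulators in the top row and of the tested genes of 5 pathway lists in the rows beneath, one point per gene, filled where the edgeR adjusted p was under 0.05. Blue bars are medians, which lie between -0.11 in the top row and 0.11 for VHL ligase and HIF turnover.

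In the list of VHL ligase subunits and HIF turnover genes, 1 of 19 tested members rose and 1 fell in edgeR, against 1.85% and 1.38% of all tested genes. Unadjusted p-values under 0.05 numbered 4 of 19, against 20.9% of all genes, and 3 members passed with DESeq2 and 3 with limma-voom, against 9.19% and 7.62% of all genes. Hspa8, the constitutive HSC70 chaperone, was at 170.5 ± 19.5 CPM after anti-MerTK and 134.1 ± 10.01 CPM after anti-gp120 (SD, n = 5 each), with no overlap (log2 fold change 0.35 with an SE of 0.09, edgeR adjusted p = 0.0485). Usp33, which encodes a deubiquitinase, averaged 25.49 ± 2.13 CPM after anti-MerTK and 33.19 ± 3.54 CPM after anti-gp120 (log2 fold change -0.38 with an SE of 0.09, edgeR adjusted p = 0.0373). Neither call held with every library: 0 members of the list passed without anti-gp120 replicates 2, 3 or 4 or without anti-MerTK replicates 1, 2 or 3, and 1 passed without anti-MerTK replicate 4. Hspa8 was also lost without anti-gp120 replicate 1 (edgeR adjusted p = 0.069). The ubiquitin-conjugating enzyme gene Cdc34 and the p53 ligase gene Mdm2 had log2 fold changes of 0.25 and 0.20 (edgeR adjusted p = 0.0799 and 0.192). The core ligase subunits Elob, Eloc, Cul2 and Rbx1, named after their values were seen, had log2 fold changes of 0.14, 0.11, -0.14 and 0.13 with SEs of 0.08 to 0.10.

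Of the CITED family and factors that bind TAZ1 or CITED2, 1 of 18 tested members rose and 0 fell, against 1.85% higher and 1.38% lower among all tested genes in edgeR. At an unadjusted edgeR p under 0.05 stood 7 of the 18, against 20.9% of all genes, and 3 passed in either direction with DESeq2 or limma-voom, against 9.19% and 7.62% of all genes. The other CITED genes measured, Cited1 and Cited4, averaged 0.07 ± 0.06 and 0.09 ± 0.09 CPM after anti-MerTK and 0.06 ± 0.06 and 0.13 ± 0.16 CPM after anti-gp120 (SD, n = 5 each), too low to be tested. The member that rose was Stat2, a transducer of type I interferon signals whose activation domain binds TAZ1 and whose own gene responds to interferon. It had 119.5, 204.6, 113.2, 128.5 and 59.28 CPM in anti-MerTK replicates 1 to 5, against 60.95, 38.78, 50.32, 55.17 and 67.76 CPM in anti-gp120 replicates 1 to 5 (log2 fold change 1.19 with an SE of 0.27, edgeR adjusted p = 0.0452). Anti-MerTK replicate 5 lay inside the anti-gp120 range of Stat2, with Cited2 at 270.3 CPM, above the anti-gp120 range of Cited2. Anti-MerTK replicate 2 was the highest library for both genes, with Cited2 at 315.5 CPM. The relation of Cited2 to Stat2 was not tested. The call of Stat2 was lost when anti-gp120 replicate 1, 2, 3 or 4 was left out (edgeR adjusted p = 0.0598, 0.113, 0.0848 and 0.126). It was also lost when anti-MerTK replicate 1, 2, 3 or 4 was left out (edgeR adjusted p = 0.094, 0.0781, 0.0926 and 0.077), and over its 18 alternatives the adjusted p ran from 0.000101 to 0.126. Creb1, the cAMP-response factor that recruits CBP, Pparg, a lipid-sensing nuclear receptor, and Lhx2, a LIM homeodomain factor at under 1 CPM, had log2 fold changes of -0.26, 0.73 and 1.07 (edgeR adjusted p = 0.0552, 0.109 and 0.115). Creb1 averaged 38.44 ± 1.83 CPM after anti-MerTK and 46.17 ± 3.62 CPM after anti-gp120 (SD, n = 5 each), with no overlap. Leaving out anti-gp120 replicate 1 or 5 brought Creb1 past the threshold (edgeR adjusted p = 0.0415 and 0.0436), and leaving out anti-MerTK replicate 5 did so for Pparg (edgeR adjusted p = 0.0386). Creb1 passed in 5 of 18 alternatives and Pparg in 3, with DESeq2 and limma-voom among them for both genes. The NF-kB subunit gene Rela and the interferon-linked gene Irf1, named after their values were seen, had log2 fold changes of 0.00 and 0.15 with SEs of 0.07 and 0.15.

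**Figure D5:**
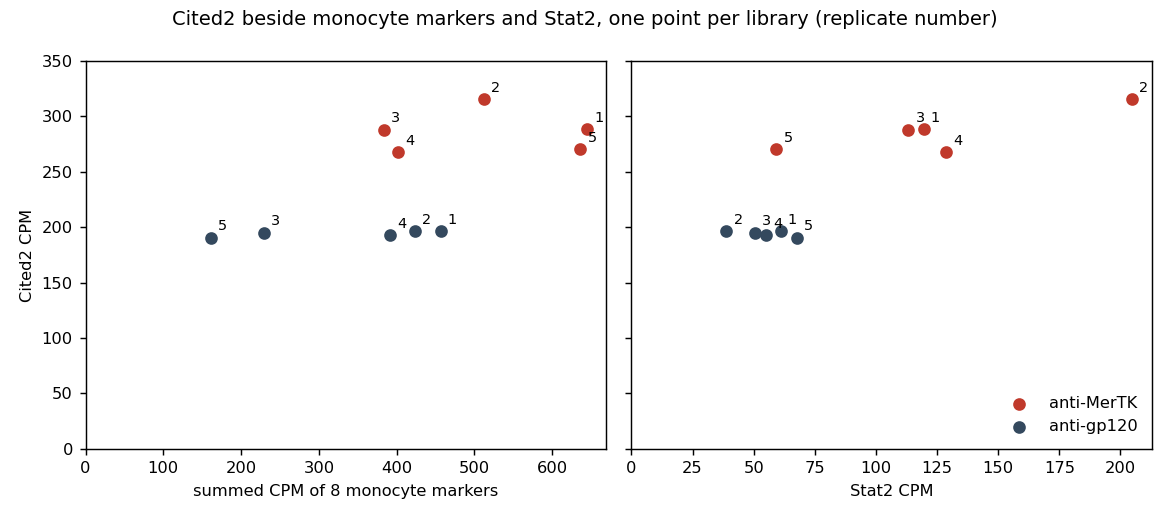
Cited2 in CPM (y axis) against the summed CPM of 8 monocyte markers (left) and against Stat2 in CPM (right), one point per library with its replicate number, anti-MerTK and anti-gp120 in 2 colours. Cited2 lies between 190.7 and 196.6 CPM over monocyte sums of 161.2 to 456.5 CPM in the anti-gp120 libraries. In the anti-MerTK libraries it lies between 268.1 and 315.5 CPM over sums of 383 to 645 CPM. Anti-MerTK replicate 5 has a Stat2 level of 59.28 CPM, and anti-MerTK replicate 2 is highest for both Cited2 and Stat2.

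Other acetyltransferases and nuclear coactivators had 0 of 18 tested members higher and 1 lower, and other bHLH-PAS factors 0 of 9 tested higher and 1 lower, in edgeR, against 1.85% and 1.38% of all tested genes. Unadjusted edgeR p-values under 0.05 numbered 4 and 3 in these lists, against 20.9% of all genes. With DESeq2 or limma-voom 2 genes in each list passed, against 9.19% and 7.62% of all genes. It was the same gene in both lists, Clock, a circadian bHLH-PAS factor with acetyltransferase activity. Clock averaged 26.19 ± 1.86 CPM after anti-MerTK and 34.84 ± 5.04 CPM after anti-gp120, with overlapping ranges (SD, n = 5 each, log2 fold change -0.41 with an SE of 0.10, edgeR adjusted p = 0.0430). The call of Clock was lost when anti-gp120 replicate 2, 3 or 4 was left out (edgeR adjusted p = 0.102, 0.0629 and 0.098). It was also lost when anti-MerTK replicate 1, 2, 3 or 5 was left out (edgeR adjusted p = 0.0966, 0.091, 0.113 and 0.0515). Its partner Arntl, also called Bmal1, had a log2 fold change of 0.17 (SE 0.12). Kat2a, the acetyltransferase GCN5, averaged 56.25 ± 7.60 CPM after anti-MerTK and 43.79 ± 2.17 CPM after anti-gp120 (log2 fold change 0.36 with an SE of 0.09, edgeR adjusted p = 0.0527). It passed in 7 of 18 alternatives. Among these were DESeq2 (adjusted p = 0.0083), limma-voom (adjusted p = 0.0175) and leaving out anti-MerTK replicate 5 (edgeR adjusted p = 0.00689). Taf1 of the general factor TFIID and the histone acetyltransferase gene Hat1 had log2 fold changes of -0.34 and 0.23 (edgeR adjusted p = 0.117 and 0.159). Ahr, the aryl hydrocarbon receptor, which also pairs with ARNT, averaged 16.88 ± 4.48 CPM after anti-MerTK and 25.75 ± 3.13 CPM after anti-gp120, with every anti-MerTK library below the anti-gp120 mean (log2 fold change -0.61 with an SE of 0.16, edgeR adjusted p = 0.0627). Ahr passed without anti-MerTK replicate 4 (edgeR adjusted p = 0.0285), with DESeq2 (adjusted p = 0.00613) and with limma-voom (adjusted p = 0.034). Npas1, at under 0.5 CPM in every library, had a log2 fold change of -0.74 (SE 0.33).

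Finally, genes were ranked by how closely their library-to-library deviations from the group means followed those of Cited2 over the 10 libraries, among 8326 named genes averaging 3 or more in log2 CPM. The highest Pearson r was that of Gnb1, a G protein beta subunit (r = 0.97, rho = 0.87). Next came Apbb1ip, an adaptor of integrin activation (r = 0.94, rho = 0.99), and Ggta1, a galactosyltransferase (r = 0.94, rho = 0.76). Zmat3, an RNA-binding zinc-finger protein, and Dgcr8, a partner of Drosha in microRNA processing, followed with r = 0.93 (rho = 0.78) and r = 0.92 (rho = 0.96). These are the highest of 8326 correlations over 10 points, and the points share library depth and composition. Each r was lowest without anti-MerTK replicate 2, the library with the highest Cited2, at 0.90, 0.84, 0.78, 0.87 and 0.86 in the same order, and 1 of the 5 genes remained among the first 5. Without anti-MerTK replicate 4 the number was 2, and without anti-gp120 replicate 1 or 3 it was 3. Cited2 deviated by -0.09 to 0.14 over the anti-MerTK libraries and by only -0.03 to 0.02 over the anti-gp120 libraries. Within anti-MerTK the 5 genes had r of 0.98, 0.94, 0.96, 0.94 and 0.99 in the same order. Within anti-gp120 r was 0.90, 0.88, 0.41, 0.96 and 0.84. Between the antibodies the 5 genes had log2 fold changes of 0.09, 0.22, -0.02, -0.06 and 0.01 and SEs of 0.06 to 0.11, and the groups overlapped for each.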

How the data were processed

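Polyadenylated RNA of purified tumour-associated macrophages was sequenced in 10 libraries, 5 per antibody. Reads were aligned with GSNAP to GRCm38, per the submitters' processing notes; no source used here gives the version, annotation or strand setting. The deposited counts are reads that aligned uniquely to a gene model, per the file headers. In the deposited RPKM values the authors applied 1 size factor to each library, per the file headers. RPKM equalled counts times a gene and a library factor to a relative 6.3e-15.

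Entrez identifiers were named from RefSeq's GRCm38.p6 table (31049 of 36528). Unnamed genes stayed in the fit, and so did their counts in library sizes. Genes passing edgeR's filterByExpr (13588) were tested with edgeR 4.0.16 (limma 3.58.1, R 4.3.3): quasi-likelihood test, TMM, robust dispersions, a single antibody term, and a Benjamini-Hochberg threshold of 0.05 over all genes. SEs are the log2 fold change over the square root of F and are approximate. The test was tried on simulated data of this comparison, with 13455 and 13469 genes tested. In each run 200 genes were changed, drawn from those averaging at least 2 CPM. Of these, 68% were recovered at 1.5-fold and 97% at 2-fold, with 6.85% and 4.43% of calls false. Each gene was drawn independently, so deviations that genes share within a library were not simulated. Replicate numbers follow accession order and pair nothing. Deviations used log2 CPM with a prior count of 2.

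The genes and lists were chosen with earlier results of these data known. Named genes are the 10 genes, the 4 of smallest p per pathway list and the 5 most like Cited2, unless the text says otherwise. Alternatives were RLE and the authors' size factors, filtering nothing, keeping genes at 5 CPM in 5 libraries, DESeq2 1.42.0, limma-voom, each library left out, and anti-MerTK replicates 2 and 5 left out together. The monocyte covariate and GENCODE M21 lengths were added after seeing the data. Promoter sequences are RefSeq's. Protein sequences were not used here.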

Additional observations from a re-analysis of the deposited data

Results flagged for a closer look

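In 6 of 106 groups of 5 libraries looked at (53 genes in both groups), 1 library stood apart from the other 4 by more than 0.71 of the group's whole range. Chance gives about 1 in 20 such groups. None was among the 10 genes of the list. In anti-MerTK libraries, the mitophagy gene Bnip3 was at 30.2 CPM in replicate 5 against 12.9 to 17.9 CPM in the others, Mertk at 70.5 CPM in replicate 3 against 79.4 to 82.7 CPM, and Rbx1 at 30.0 CPM in replicate 1 against at least 33.6 CPM in the others. In anti-gp120 libraries, Cdc34 was at 44.6 CPM and Ldha at 938 CPM in replicate 1, against 36.1 to 37.9 CPM and 640 to 721 CPM in the others. Hif3a was at 0.12 CPM in anti-gp120 replicate 2, against at most 0.0275 CPM in the others.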

How the results depend on the processing

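No paired analysis was possible because the labels give no replicate numbers. The log2 fold change of Cited2, on which the list was chosen, was 0.52 to 0.58 over 18 alternatives, which are fits of the same counts and no support for it. Over all genes, 601 were higher and 551 lower with DESeq2, 526 and 510 with limma-voom, 152 and 52 in 8 libraries (without anti-MerTK replicates 2 and 5), and 138 and 86 with the monocyte covariate, against 251 and 187. Leaving out 1 library gave 55 to 370 higher and 15 to 284 lower genes, both fewest without anti-gp120 replicate 4.

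HIF targets past the threshold numbered 3 with limma-voom, 0 with the monocyte covariate and 1 to 3 with a library left out. VHL ligase and turnover genes numbered 3 with DESeq2 or limma-voom, 0 in 8 libraries, 1 with the covariate and 0 to 2 with a library left out. Factors binding TAZ1 or CITED2 numbered 0 with no filter or the covariate, 2 with the 5 CPM filter, 3 with DESeq2 or limma-voom, and 0 to 2 with a library left out. Acetyltransferases and coactivators numbered 2 with RLE, no filter, the 5 CPM filter, DESeq2 or limma-voom, 0 with the covariate and 0 to 1 with a library left out. Other bHLH-PAS factors numbered 2 with DESeq2 or limma-voom, 0 in 8 libraries or with the covariate, and 0 to 2 with a library left out. The estimate of Arntl, which did not pass, reversed to -0.0354 with the covariate. The cause of these moves was not tested.

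Of the 5 genes most like Cited2, 1 to 4 stayed among the first 5 with a library left out, and 5 with a prior count of 0.5. With CPM per kilobase of the longest GENCODE M21 transcript, 8 of the 10 genes kept their place in the order of levels after anti-MerTK. RefSeq transcript lengths were not used here, so that alternative was not run. Depth limits Epas1, with 5 to 46 reads per library.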
